A study of Mus musculus with 6 samples.

Results

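Molecular chaperones help other proteins reach and keep their folded state, and the genes described here encode the main chaperone families of microglia, the resident macrophages of the brain. They are the genes whose symbol begins with Hspa, Hspb, Hspd1, Hspe1, Hsph1, Hsp90, Dnaja, Dnajb, Dnajc or Cct2 to Cct8, without entries marked as pseudogenes by "-ps". This rule takes 83 of the 48587 genes counted. No reads at all were counted for 7 of them, 10 had reads but too few for a test, and 66 were among the 10394 genes tested. RNA with poly(A) tails was sequenced from microglia of C57BL/6 mice at postnatal day 42, about 1000 sorted cells per library. The 3 Lyl1 KO libraries came from mice lacking Lyl1, which encodes a transcription factor with a basic helix-loop-helix domain that acts in blood-forming cells. The 3 WT libraries came from wild-type mice of the same strain and age. The sources used here give neither the sorting gate nor the kind of Lyl1 allele, and the labels do not say that each library came from a separate animal. The p-values below therefore measure the spread between these libraries, which may be technical.

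HSP70 proteins bind exposed hydrophobic stretches of client proteins and release them as ATP is hydrolysed and exchanged. DNAJ proteins deliver clients and start hydrolysis, while HSP110 and BAG proteins help nucleotide exchange. HSP90 dimers act later on kinases, receptors and other near-folded clients, and the ring-shaped chaperonin CCT encloses actin, tubulin and other substrates. Heat shock factor HSF1 induces many of the cytosolic members during stress, and a separate response raises those of the endoplasmic reticulum (ER) when unfolded proteins build up there.

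Library totals ran from 19205948 to 27305558 reads in Lyl1 KO and from 12753945 to 27378614 in WT, and WT library 1 was the shallowest. Levels are given as CPM, the read counts scaled for library size and composition (TMM), and 3 reads, the limit that a count of 0 allows, correspond to 0.104 to 0.264 CPM. That limit covers counting error only. Genes detected numbered 13085, 14923 and 15531 in Lyl1 KO libraries 1 to 3, against 13045, 12827 and 15652 in WT libraries 1 to 3. Lyl1 had 205, 237 and 410 reads in Lyl1 KO and 683, 1399 and 839 reads in WT. It was thus lower in every library labelled Lyl1 KO, though not at 0. The 5 microglia markers P2ry12, Tmem119, Cx3cr1, Csf1r and Sall1 summed to between 26998 and 29378 CPM in Lyl1 KO and between 26430.2 and 28581 CPM in WT. The 3 T cell markers, of which Cd3e and Trac had no reads, summed to at most 0.0508 CPM in a library. The 4 neutrophil markers, S100a8 at 0, summed to 0.132 to 0.209 CPM in Lyl1 KO and 0 to 3.26 CPM in WT, and the 4 astrocyte markers, Gfap and Aldoc at 0, to 0 to 0.864 CPM in Lyl1 KO and 0 to 1.59 CPM in WT. The 4 neuron markers, Snap25 at 0, summed to 0.174 to 7.62 CPM in Lyl1 KO, mostly Rbfox3 in library 1, and to 0 to 0.793 CPM in WT. The 3 monocyte markers summed to 0.152 to 6.91 CPM in Lyl1 KO, mostly Ccr2 in libraries 1 and 3, and to 0.0477 to 0.529 CPM in WT. The 3 B cell markers summed to 73.5 to 132 CPM in Lyl1 KO and 55.9 to 131 CPM in WT, nearly all of it Cd79b. The labels do not give the sex of the mice. Xist, transcribed from the inactive X chromosome of females, was high in Lyl1 KO libraries 1 and 3 and low in Lyl1 KO library 2 and in all 3 WT libraries, so its level is in part confounded with genotype. With Xist as a covariate neither Cct7 (unadjusted p = 0.123) nor Hspbap1 (unadjusted p = 0.0546) was under 0.05 in edgeR, and the member that was, Dnajb5, is named after its values were seen.

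Chaperone genes as a whole took 0.619%, 0.668% and 0.596% of the reads in Lyl1 KO libraries 1 to 3. In WT libraries 1 to 3 they took 0.506%, 0.603% and 0.620%, lowest in WT library 1. Scaled as CPM, they summed to 6070, 6518 and 5659 in Lyl1 KO libraries 1 to 3, against 5687, 6559 and 5805 in WT libraries 1 to 3. Of the 66 tested members 32 were higher and 34 lower in Lyl1 KO, where 48.7% of all tested genes were higher and 51.3% lower. The median log2 fold change, Lyl1 KO over WT, was -0.06 for the members and -0.03 for all tested genes. No member passed the edgeR quasi-likelihood test after Benjamini-Hochberg adjustment at 0.05, nor did any other gene (0 of 10394, 0%). Adjusted p was 0.9999 for every member. DESeq2 and limma-voom on the same genes called 0 members as well, beside 52 (0.5%) and 0 (0%) of all tested genes. At an unadjusted p under 0.05 edgeR listed 1 member as higher (Hspbap1) and 1 as lower (Cct7), against 1.16% and 1.67% of all tested genes. DESeq2 listed 4 members at that level, beside 6.02% of all tested genes, and limma-voom 2, beside 6.38%.

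In 6 members the genotypes did not overlap. Every Lyl1 KO library lay above every WT library for Hspa8, Hspbap1 and Dnajc9, and below for Hspa1b, Hspa9 and Cct7. These are 3 of 66 members in each direction, beside 5.97% of all tested genes for higher and 5.19% for lower. With 3 libraries against 3, the smallest exact 2-sided permutation p for 1 gene is 0.1, so no single gene could pass 0.05 in such a test. Dnajc9 is named after its values were known. In bulk RNA such as this, fewer cells of a type and less RNA per cell cannot be told apart.

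Among cytosolic HSP70 genes the constitutive Hspa8 was higher and the stress-inducible Hspa1b lower in Lyl1 KO, neither past the adjusted threshold. The other stress-inducible copy, Hspa1a, overlapped between genotypes, as did the sum of both copies. Hspa8, which encodes the constitutive HSC70 (chr9:40800984-40810087 on GRCm38, plus strand), was at 162, 216 and 141 CPM in Lyl1 KO libraries 1 to 3, against 105, 87.2 and 99.7 CPM in WT libraries 1 to 3. The WT libraries lay close together, below the lowest Lyl1 KO library. Means were 173 ± 38.6 CPM in Lyl1 KO and 97.4 ± 9.19 CPM in WT (SD, n = 3 each), and the log2 fold change was 0.83, SE (its standard error) 0.38 (edgeR, unadjusted p = 0.0624, adjusted p = 0.9999). It stayed positive under every alternative run, between 0.66 and 1.11. Of the 50-base stretches in Hspa8 transcripts 39.4% also occur in transcripts of other genes, most of them in Gm15459, a gene to which no reads were assigned in any library. How reads of these stretches were counted is not known.

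Hspa1b, one of a pair of near-identical stress-inducible HSP70 genes (chr17:34956436-34959238, minus strand), was at 6.82, 26.5 and 5.70 CPM in Lyl1 KO, against 66.7, 37.7 and 36.7 CPM in WT. Lyl1 KO library 2 was the highest of its group and still below every WT library. The log2 fold change was -1.85, SE 1.14 (edgeR, unadjusted p = 0.144, adjusted p = 0.9999), and it ranged from -2.89 to -1.01 over the alternatives. Hspa1a, the other copy (chr17:34969190-34972156, minus strand), was at 10.1, 22.4 and 0.869 CPM in Lyl1 KO, against 41.2, 5.72 and 6.30 CPM in WT. Its genotypes overlapped, and WT library 1 alone stood high. The log2 fold change of Hspa1a, -0.67 with a standard error of 1.70, became 0.90 without WT library 1.

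Reads of this pair cannot be divided with certainty, since 66.3% of the 50-base stretches of Hspa1a transcripts and 62.3% of those of Hspa1b transcripts occur in another gene. Counted together, the pair was at 16.9, 48.9 and 6.57 CPM in Lyl1 KO, against 108, 43.4 and 43.0 CPM in WT. On the summed counts Lyl1 KO library 2 lay above WT libraries 2 and 3, so the groups overlapped, and the log2 fold change was -1.42 (edgeR, unadjusted p = 0.203). The stretches before their starts are alike too, with 247 of 250 bases identical. They are shown to let the copies be compared, from RefSeq on GRCm38.p6, 5′ to 3′ on the minus strand and ending at the base before the start. Capitals mark GAANNTTC, which is a pair of opposed units of the heat shock element bound by HSF1, found on either strand.
Hspa1a (chr17:34972157-34972406, minus strand): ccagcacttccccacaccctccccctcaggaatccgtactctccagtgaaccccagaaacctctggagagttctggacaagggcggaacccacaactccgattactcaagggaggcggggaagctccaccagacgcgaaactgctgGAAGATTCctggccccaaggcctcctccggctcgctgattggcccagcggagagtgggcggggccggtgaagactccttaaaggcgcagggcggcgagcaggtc
Hspa1b (chr17:34959239-34959488, minus strand): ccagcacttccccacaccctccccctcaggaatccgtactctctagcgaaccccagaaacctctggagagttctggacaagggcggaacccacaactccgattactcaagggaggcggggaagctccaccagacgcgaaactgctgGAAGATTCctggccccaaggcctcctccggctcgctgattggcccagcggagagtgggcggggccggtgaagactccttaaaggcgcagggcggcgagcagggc
Both windows hold this pair of units once, and the letters match in the 8 bases marked.

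The other cytosolic HSP70 genes varied widely. Hspa14, which acts on nascent chains at the ribosome, was at 7.49, 66.1 and 36.3 CPM in Lyl1 KO, against 94.6, 67.8 and 56.2 CPM in WT. Lyl1 KO library 1 was the lowest of the 6, and Lyl1 KO library 2 lay among the WT values. Hspa2, best known from developing sperm, had 0, 18 and 532 reads in Lyl1 KO, against 5, 15 and 2 reads in WT. Its log2 fold change of 4.08 rests on Lyl1 KO library 3 and was 0.27 without it. Hspa1l had no reads, and Hspa12a had 77 reads, all in Lyl1 KO library 3. Hspa12b had 1 read in all, in WT library 2. These last 3 are given to account for every member and are named after their values were seen.

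The 3 HSP110 exchange factors, which restart the HSP70 cycle by releasing ADP, did not share a direction. Hspa4, the one with the highest CPM, was at 18.2, 104 and 78.2 CPM in Lyl1 KO, against 235, 118 and 17.5 CPM in WT. WT library 3 and Lyl1 KO library 1 were both low, and the log2 fold change of -0.88 had a standard error of 0.97. Hsph1 had 389, 17 and 23 reads in Lyl1 KO, against 259, 2 and 295 reads in WT, and Hspa4l had 1, 553 and 1 reads in Lyl1 KO, against 94, 0 and 307 reads in WT. For these genes the libraries of 1 genotype differed more from each other than the genotypes did.

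Of the HSP90 genes, Hsp90ab1 and Hsp90b1 were among the steadiest members and Hsp90aa1 was not. Hsp90ab1, the constitutive cytosolic HSP90 (chr17:45567775-45573271, minus strand), was at 617, 502 and 529 CPM in Lyl1 KO, against 335, 592 and 604 CPM in WT. WT library 1 was the low one, and the other 5 lay within a narrow band. The log2 fold change was 0.11, SE 0.28. Hsp90aa1, the inducible cytosolic form (chr12:110690605-110702728, minus strand), was at 92.2, 106 and 18.1 CPM in Lyl1 KO, against 131, 39.8 and 55.0 CPM in WT. Each genotype held both high and low libraries, and the log2 fold change of -0.06 (SE 0.83) changed sign under 8 of 17 alternatives. Gm12346 shares 41.8% of the 50-base stretches of Hsp90aa1 and had at most 79 reads in a library. How reads of shared stretches were counted is not known, so the level of Hsp90aa1 is uncertain. Per kilobase of exon, the constitutive gene was at 183 ± 20.0 CPM per kb in Lyl1 KO and 170 ± 50.6 CPM per kb in WT, against 18.3 ± 12.0 and 19.1 ± 12.4 CPM per kb for the inducible one (SD, n = 3 each). The ratio of their reads was 6.69, 4.74 and 29.3 in Lyl1 KO, against 2.56, 14.9 and 11.0 in WT, with overlapping groups.

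**Figure D1:**
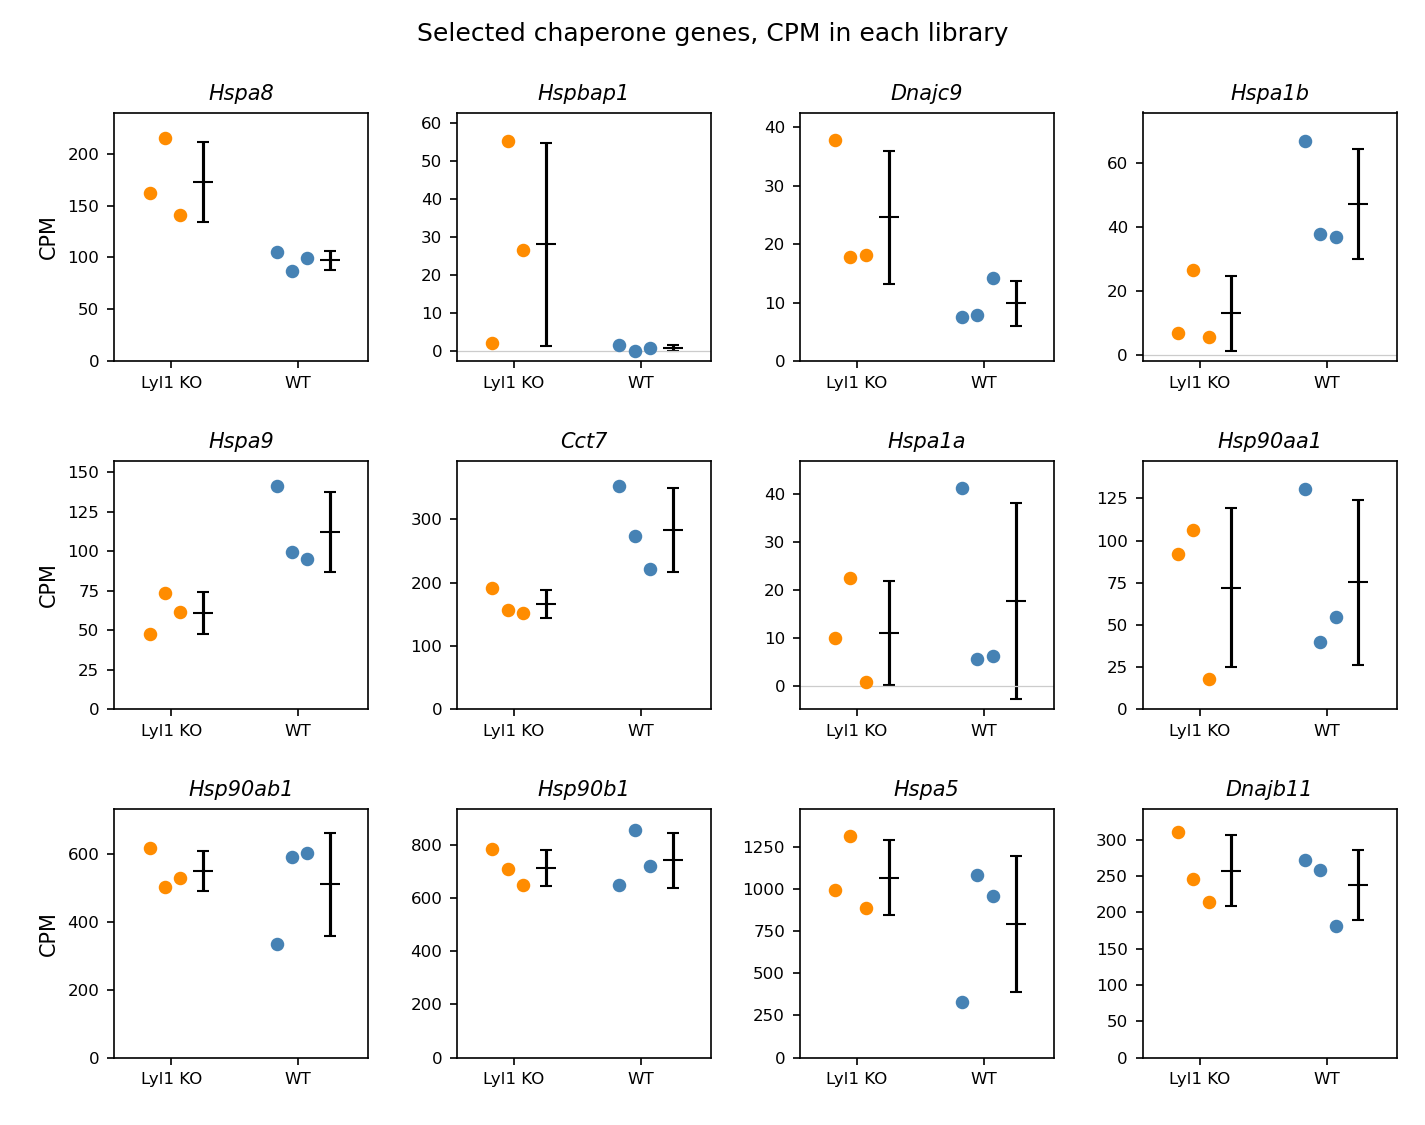
CPM of 12 chaperone genes in each of the 6 libraries (points, in order of library number from left to right), with the mean and SD of 3 Lyl1 KO libraries left of those of 3 WT libraries. In the top row and for Hspa9 and Cct7 the points of both genotypes do not overlap, and in the bottom row the abundant genes have close values apart from WT library 1 for Hsp90ab1 and Hspa5.

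Hspa5 and Hsp90b1 of the ER had the highest mean CPM of all members. With Dnajb11 and Dnajc3 they held 36.3%, 36.0% and 33.3% of the members' reads in Lyl1 KO, against 25.4%, 34.7% and 34.3% in WT. Hspa5, which encodes the ER HSP70 called BiP (chr2:34771970-34777547, plus strand), was at 998, 1319 and 887 CPM in Lyl1 KO, against 330, 1087 and 958 CPM in WT. WT library 1 stood below all others, and the remaining 5 overlapped. The log2 fold change was 0.43, SE 0.42, and without WT library 1 it was 0.07. Hsp90b1, the ER form of HSP90 called GRP94 (chr10:86690209-86705509, minus strand), was at 787, 709 and 651 CPM in Lyl1 KO, against 650, 857 and 721 CPM in WT. This was the steadiest tested member, with a highest library 1.32-fold above the lowest. Its log2 fold change of -0.05 (SE 0.20) reached at most 0.09 and at least -0.13 over the alternatives.

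Dnajb11 and Dnajc3, co-chaperones of BiP in the ER lumen, lay at similar levels in both genotypes. Dnajb11 was at 311, 247 and 215 CPM in Lyl1 KO, against 272, 258 and 182 CPM in WT, and Dnajc3 at 109, 71.3 and 131 CPM in Lyl1 KO, against 193, 73.0 and 129 CPM in WT. Their log2 fold changes were 0.12 and -0.34, with standard errors of 0.31 and 0.51. Dnajc10, an ER reductase that breaks disulfide bonds, was at 14.7, 53.2 and 33.1 CPM in Lyl1 KO, against 169, 147 and 23.7 CPM in WT. WT library 3 lay with the Lyl1 KO values, so the genotypes overlapped. The log2 fold change was -1.75, SE 0.88 (edgeR, unadjusted p = 0.0845, adjusted p = 0.9999), and in the 3 libraries with the most genes detected it was 0.88. Hspa13, a microsomal HSP70 relative, was at 99.9, 105 and 58.6 CPM in Lyl1 KO, against 91.2, 0.278 and 99.5 CPM in WT, with WT library 2 alone near 0.

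Hspa5, Hsp90b1 and Dnajc3 are also the members with an ER stress element, CCAAT followed after any 9 bases by CCACG on either strand, in the 250 bases before an annotated start. That is 3 of 68 members with a RefSeq promoter entry, beside 0.130% of 27025 genes. The sites are shown because this motif was the rarest of the 3 searched, in 30 bases around each, from RefSeq on GRCm38.p6, 5′ to 3′ on the strand of the gene and with the motif or its reverse complement in capitals.
Hspa5 (chr2:34772020-34772049, plus strand): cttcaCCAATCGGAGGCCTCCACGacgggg
Hsp90b1 site 1 (chr10:86705632-86705661, minus strand): caagcCCAATCGCAAGGAGCCACGcttcgg
Hsp90b1 site 2 (chr10:86705527-86705556, minus strand): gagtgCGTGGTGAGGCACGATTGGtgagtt
Dnajc3 (chr14:118937822-118937851, plus strand): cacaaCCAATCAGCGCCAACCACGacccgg
The second Hsp90b1 site is the motif read from the opposite strand. A match of letters is a description and does not show that a factor binds. The log2 fold changes of these genes ran from -0.34 to 0.43, with 1 higher and 2 lower.

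In mitochondria, Hspd1 and Hspe1 encode HSP60 and HSP10, the ring and the lid of the chaperonin there, and are named here after their values were seen. They lie head to head on chromosome 1, Hspd1 on the minus strand (chr1:55077835-55088243) and Hspe1 on the plus strand (chr1:55088132-55091307), and 112 exonic bases overlap. Hspd1 had 1, 809 and 512 reads in Lyl1 KO, against 481, 0 and 415 reads in WT. Hspe1 had 138, 254 and 475 reads in Lyl1 KO, against 154, 284 and 337 reads in WT. Hspe1 thus had reads in the libraries, 1 of each genotype, where Hspd1 was almost or wholly missing. Hspd1 shares 42.1% of its 50-base stretches with other genes, mainly the pseudogene Hspd1-ps3, which had at most 3 reads in a library. The handling of reads from such stretches is not known. Before the Hspe1 start, and before 1 of the 2 RefSeq starts of Hspd1, lies a run of heat shock units, GAANNTTC followed after any 2 bases by a further GAA on either strand, which was found for 3 of 68 members (Dnajb6, Hspd1 and Hspe1) and for 0.514% of 27025 genes. It is shown because both genes of the pair share it, from RefSeq on GRCm38.p6, 5′ to 3′ on the strand of Hspe1 and with 2 overlapping matches in capitals.
Hspe1 (chr1:55088053-55088082, plus strand): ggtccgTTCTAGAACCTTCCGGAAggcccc
The marked bases lie 89 to 72 bases before the Hspe1 start. The shorter GAANNTTC, which also lies within the longer motif, was found for 13 of 68 members (19.1%) and for 7.73% of all genes. Of these 13, 11 were tested, with 4 higher and 7 lower in Lyl1 KO.

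For the mitochondrial HSP70 the genotypes did not overlap. Hspa9, whose product is also called mortalin (chr18:34937414-34954357, minus strand), was at 47.5, 73.5 and 61.9 CPM in Lyl1 KO, against 141, 99.8 and 95.5 CPM in WT. All WT libraries lay above all Lyl1 KO libraries. Means were 61.0 ± 13.1 CPM in Lyl1 KO and 112 ± 25.2 CPM in WT (SD, n = 3 each), with a log2 fold change of -0.88 and a standard error of 0.51 (edgeR, unadjusted p = 0.123, adjusted p = 0.9999). The sign held under every alternative run, from -1.02 to -0.49. Dnaja3, its DNAJ partner, was at 39.5, 64.3 and 64.1 CPM in Lyl1 KO, against 1.06, 314 and 103 CPM in WT, so the WT libraries held both the lowest and the highest value.

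Subunits of the cytosolic chaperonin CCT, which act in 1 fixed complex, did not move together. The rule takes Cct2 to Cct8, while the remaining subunit gene, Tcp1, has another prefix and is given with the partner genes below. Cct2, Cct4, Cct6a and Cct8 are named after their values were seen, to complete the complex. Cct7 (chr6:85451514-85468475, plus strand) was at 191, 156 and 152 CPM in Lyl1 KO, against 353, 274 and 222 CPM in WT. The lowest WT library lay above the highest Lyl1 KO library. Means were 166 ± 21.5 CPM in Lyl1 KO and 283 ± 66.1 CPM in WT (SD, n = 3 each), 1.70-fold lower in Lyl1 KO, and the log2 fold change was -0.77, SE 0.31 (edgeR, unadjusted p = 0.0415, adjusted p = 0.9999). Over the alternatives it ran from -0.91 to -0.52, and in the same alternatives the unadjusted p ran from 0.0295 to 0.230. Pradc1 overlaps 214 of its exonic bases on the opposite strand.

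The other subunits overlapped between genotypes. Cct3 was at 182, 168 and 188 CPM in Lyl1 KO, against 260, 204 and 124 CPM in WT, and Cct5 at 123, 174 and 205 CPM in Lyl1 KO, against 337, 94.7 and 145 CPM in WT. Cct8 was at 67.3, 171 and 210 CPM in Lyl1 KO, against 145, 106 and 164 CPM in WT. The Lyl1 KO values of Cct3 and Cct5 lay within the span of WT, and those of Cct8 reached beyond it on both sides. Log2 fold changes were -0.13 for Cct3, -0.20 for Cct5 and 0.11 for Cct8. Cct2 was at 125, 25.6 and 86.5 CPM in Lyl1 KO, against 1.85, 0.0397 and 91.7 CPM in WT, the second of these a single read. Cct6a was at 68.6, 172 and 190 CPM in Lyl1 KO, against 24.9, 5.52 and 162 CPM in WT, and Cct4 at 126, 130 and 175 CPM in Lyl1 KO, against 16.8, 207 and 114 CPM in WT. For Cct2 and Cct6a, WT libraries 1 and 2 were low and WT library 3 lay with Lyl1 KO. Psph overlaps 452 exonic bases of Cct6a on the opposite strand, so part of those reads is uncertain. Per kilobase of exon, the highest of the 7 subunits lay 2.58, 6.28 and 3.31-fold above the lowest in Lyl1 KO libraries 1 to 3, against 168, 3166 and 2.74-fold in WT libraries 1 to 3. These spans depend also on the annotated exon lengths. In WT libraries 1 and 2, 20.6% and 21.7% of all tested genes were at 3 reads or fewer, against 2.34% in WT library 3. Cct2 was the lowest subunit in WT libraries 1 and 2. Without it the spans over the other 6 subunits were 2.35, 2.73 and 3.31-fold in Lyl1 KO, against 30.4, 32.2 and 2.74-fold in WT, so WT libraries 1 and 2 still had the widest.

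**Figure D2:**
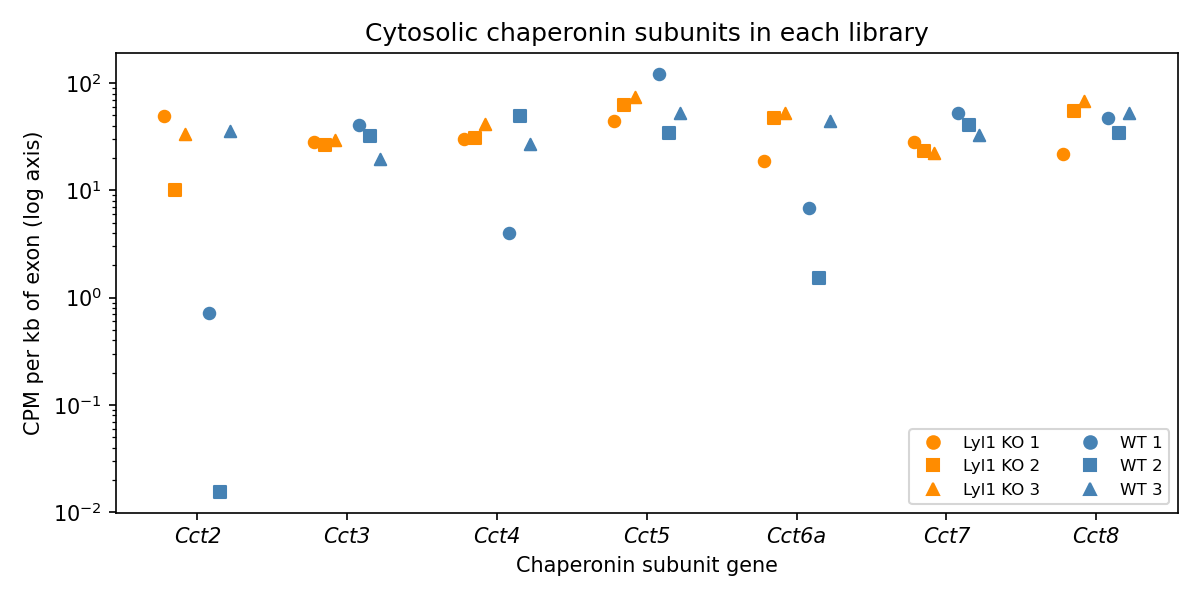
CPM per kilobase of exon on a log axis for 7 subunit genes of the cytosolic chaperonin, with 3 Lyl1 KO libraries (left symbols) and 3 WT libraries (right symbols) for each gene. The Cct7 symbols of both genotypes are apart, and Cct2 is far below the other subunits in WT libraries 1 and 2 but not in WT library 3.

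Small heat shock proteins, which hold unfolding proteins without ATP, were mostly absent or low. Of 8 genes 2 had no reads (Hspb7 and Hspb8), and 3 had reads in too few libraries for a test. Hspb6, named like Hspb7 and Hspb8 after its values were seen, was one of the untested, with 0, 0 and 328 reads in Lyl1 KO, against 0, 0 and 575 reads in WT. Hspb1, the broadly induced HSP27, had only 7, 28 and 45 reads in Lyl1 KO, against 0, 83 and 55 reads in WT. Hspb3, known from muscle (chr13:113662896-113663676, minus strand), was in contrast at 162, 113 and 93.4 CPM in Lyl1 KO, against 32.3, 157 and 66.0 CPM in WT. Its groups overlapped, and the log2 fold change was 0.53, SE 0.65. Per kilobase of exon, Hspb3 was the member with the fourth highest level, at 157 ± 45.1 CPM per kb in Lyl1 KO and 109 ± 82.6 CPM per kb in WT (SD, n = 3 each). Its rank depends on the annotated exon lengths. Hspb11, which despite its name belongs to the transport machinery of cilia, had 0, 126 and 79 reads in Lyl1 KO, against 1, 57 and 105 reads in WT.

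DNAJ co-chaperones were the largest family, and their classes were near balance. In class A 2 of 4 tested genes were higher and 2 lower, in class B 6 of 10 higher and 4 lower, and in class C 11 of 24 higher and 13 lower. Dnaja1, a main partner of HSC70, was at 37.7, 36.4 and 29.5 CPM in Lyl1 KO, against 99.9, 60.9 and 24.6 CPM in WT. Dnajb1, the HSP40 induced with HSP70, was at 162, 113 and 55.4 CPM in Lyl1 KO, against 203, 36.5 and 106 CPM in WT. Neither gene separated the genotypes, since WT held the highest and the lowest value of each. Dnajc7, an adaptor between HSP70 and HSP90, was at 317, 195 and 234 CPM in Lyl1 KO, against 109, 201 and 277 CPM in WT, and Dnajc8, a splicing-associated member, at 109, 164 and 122 CPM in Lyl1 KO, against 116, 184 and 94.0 CPM in WT. The log2 fold change of Dnajc8 was 0.00 with a standard error of 0.43.

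Dnajc9, a chaperone of histones (chr14:20384638-20388910, minus strand), was at 37.8, 17.8 and 18.2 CPM in Lyl1 KO, against 7.49, 7.91 and 14.3 CPM in WT. Its groups did not overlap, but the gap between the nearest libraries was small beside the spread, and the log2 fold change of 1.31 had a standard error of 1.29 (edgeR, unadjusted p = 0.339, adjusted p = 0.9999). Among the lower genes, Dnajc16 was at 19.9, 3.30 and 2.50 CPM in Lyl1 KO, against 30.4, 96.5 and 6.44 CPM in WT. Among the higher ones, Dnaja2, an HSC70 partner, was at 17.0, 187 and 102 CPM in Lyl1 KO, against 1.15, 8.06 and 88.7 CPM in WT. Dnajc21, a factor of ribosome assembly, had 98, 34 and 280 reads in Lyl1 KO, against 1, 2 and 69 reads in WT. In both WT library 3 lay with Lyl1 KO. Dnaja4 had 257, 421 and 0 reads in Lyl1 KO, against 1, 0 and 73 reads in WT, and 44.1% of its exonic bases overlap Wdr61 on the opposite strand. Strand is not marked by the kit, and reads of that stretch cannot be told apart.

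The prefix also takes genes whose products bind heat shock proteins, Hspbap1 and Hspbp1. Hspbap1, named for its association with the HSPB1 protein (chr16:35770375-35828477, plus strand), had 47, 1090 and 765 reads in Lyl1 KO, against 18, 1 and 15 reads in WT. All Lyl1 KO libraries were higher, though Lyl1 KO library 1, at 2.07 CPM, was close to WT library 1, at 1.59 CPM. Means were 28.0 ± 26.7 CPM in Lyl1 KO and 0.781 ± 0.776 CPM in WT (SD, n = 3 each), and the log2 fold change was 5.17, SE 2.13 (edgeR, unadjusted p = 0.0429, adjusted p = 0.9999). It ran from 4.22 to 6.21 over the alternatives. The antisense gene Gm26838 overlaps 430 of its exonic bases. Hspbp1, which strips nucleotide from HSP70, was at 49.4, 12.8 and 36.6 CPM in Lyl1 KO, against 84.2, 132 and 46.8 CPM in WT. Lyl1 KO library 1 lay just above WT library 3, and the log2 fold change was -1.41, SE 0.80.

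**Figure D3:**
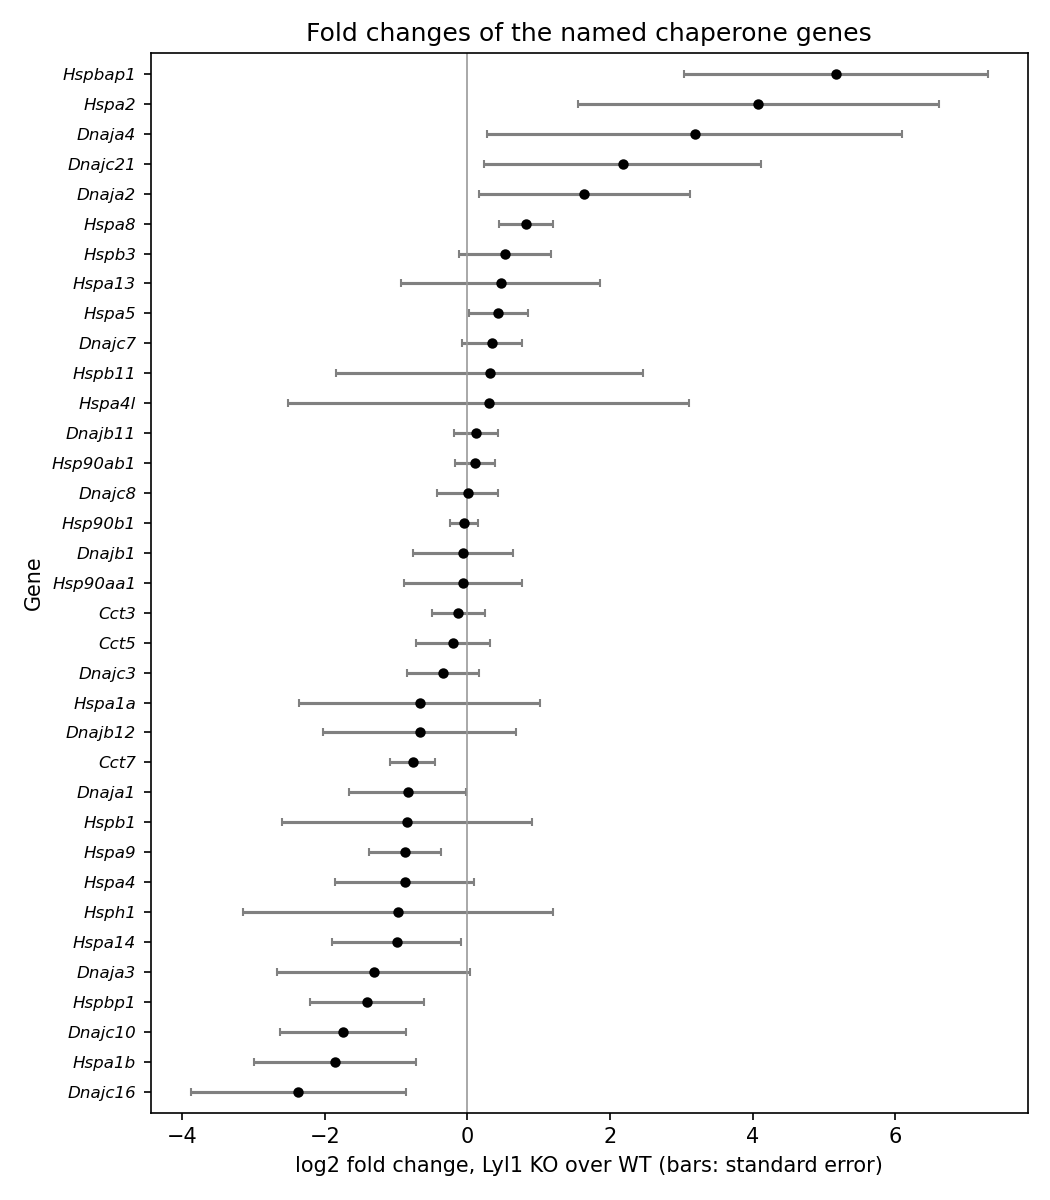
Log2 fold change, Lyl1 KO over WT, of the 35 chaperone genes named by rule, with bars of 1 standard error derived from the edgeR F statistic. Hspa8 and Cct7 lie at 0.83 and -0.77 with bars of 0.38 and 0.31 log2 units on each side, the genes at the top with the largest changes have bars of 1.48 to 2.91 log2 units on each side, and Hsp90b1 and Hsp90ab1 lie near 0.

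How steady a member was tended to go with its level, though not for every gene. Of 66 tested members 50 had more than 3 reads in every library, and 16 (24.2%) had 3 or fewer in at least 1, against 39.5% of all tested genes. By library, 6, 3 and 2 members were at 3 reads or fewer in Lyl1 KO libraries 1 to 3, against 9, 9 and 1 in WT libraries 1 to 3. Over all tested genes these shares were 11.6%, 10.8% and 1.54% in Lyl1 KO, against 20.6%, 21.7% and 2.34% in WT. The 16 members with a mean of 100 CPM or more had a median coefficient of variation of 22.2% in Lyl1 KO and 39.4% in WT, and none of them was at 3 reads or fewer anywhere. The 50 members under 100 CPM had medians of 63.0% in Lyl1 KO and 88.2% in WT. Median absolute log2 fold changes were 0.27 and 0.93 for the abundant and the less abundant members. In 5 members the highest library was at most 2-fold above the lowest, namely Hsp90b1, Dnajb11, Hsp90ab1, Dnajc5 and Dnajc8, the fourth of which is named after its values were seen. Dnajc5, the cysteine string protein of vesicles, was at 128, 82.8 and 85.0 CPM in Lyl1 KO, against 66.6, 91.8 and 74.7 CPM in WT.

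**Figure D4:**
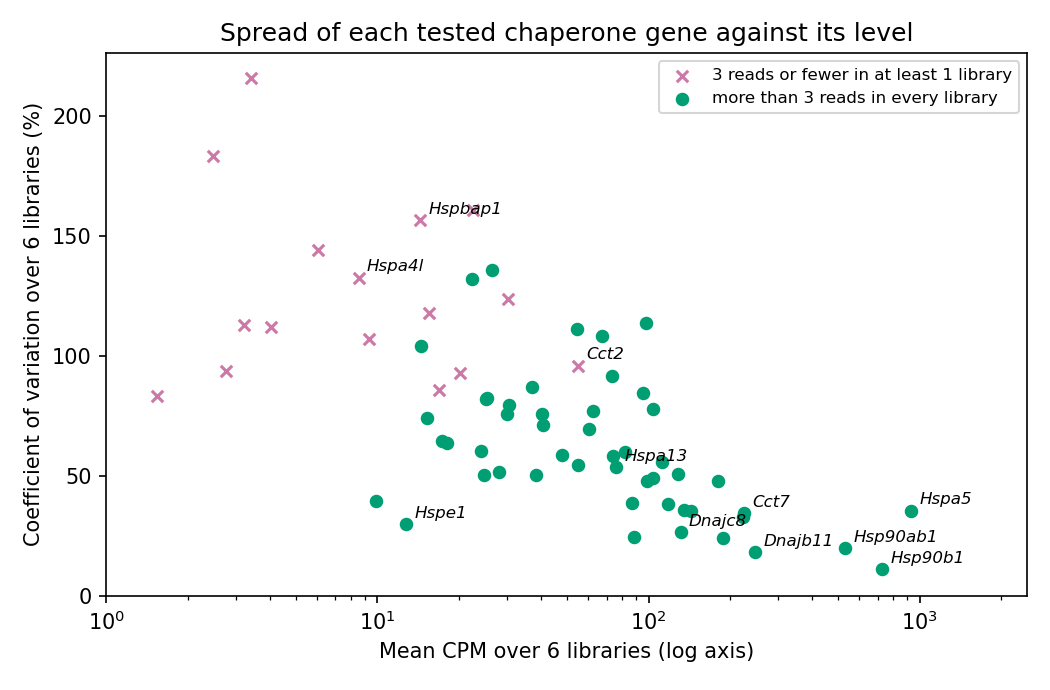
Coefficient of variation over the 6 libraries, in percent, against mean CPM on a log axis, for the 66 tested chaperone genes. Crosses are the 16 genes with 3 reads or fewer in at least 1 library, and circles the other 50. The spread tends to fall with the level, down to 11.1% for Hsp90b1. Exceptions are Hspa5, at the highest level with 35.5%, and Cct6a with 77.8%.

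Hspa5, Hsp90b1 and Hsp90ab1 were the top members in every library but WT library 1. They held 39.6%, 38.8% and 36.5% of the members' reads in Lyl1 KO libraries 1 to 3, against 38.7% and 39.3% in WT libraries 2 and 3. In WT library 1 the leading members were Hsp90b1, Cct7 and Cct5, with 23.6%. The ratio of Hspa5 to Hspa8 reads was 6.15, 6.12 and 6.31 in Lyl1 KO, against 3.13, 12.5 and 9.60 in WT. It was nearly the same in the 3 Lyl1 KO libraries, and those values lay inside the wider span of WT.

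Genes that regulate or partner these chaperones were taken from 5 lists. Of the 52 tested edgeR called 0, with 0 at an unadjusted p under 0.05. DESeq2 and limma-voom also called 0, with 3 and 5 at that level, beside 6.02% and 6.38% of all tested genes. Of 3 tested genes on the heat shock factor list 2 were higher, Hsf1 and Hsf2, and 1 lower, Hsbp1. Hsbp1, which encodes a binding protein of heat shock factors and not a factor itself, had a log2 fold change of -0.17, SE 0.28. Its levels were 256, 238 and 209 CPM in Lyl1 KO, against 240, 235 and 313 CPM in WT. Hsf1, the main stress-responsive factor, was at 47.4, 71.4 and 94.6 CPM in Lyl1 KO, against 9.52, 71.8 and 34.1 CPM in WT. Hsf2, a second factor of that family, was at 29.1, 28.9 and 6.68 CPM in Lyl1 KO, against 6.61, 0.874 and 5.63 CPM in WT. All Lyl1 KO libraries were above all WT libraries for Hsf2, the nearest pair by a small margin. That is 1 of 3 tested genes on this list, beside 5.97% of all tested genes.

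Of 10 HSP70 exchange and BAG genes 8 were higher and 2 lower, and the median log2 fold change was 0.53, beside -0.03 for all tested genes. Genotypes did not overlap for 2 of them as higher and 1 as lower, beside 5.97% and 5.19% of all tested genes. Bag1, an exchange factor for HSC70, was at 156, 141 and 108 CPM in Lyl1 KO, against 59.0, 68.2 and 106 CPM in WT, and did not overlap. Its log2 fold change was 0.79, SE 0.46 (edgeR, unadjusted p = 0.125). Hyou1, the HSP110 of the ER, was at 104, 41.8 and 17.9 CPM in Lyl1 KO, against 0.441, 0.715 and 14.2 CPM in WT. It did not overlap either, but WT library 3 lay close to Lyl1 KO library 3 (edgeR, unadjusted p = 0.0806). Bag4 had 152, 577 and 446 reads in Lyl1 KO, against 3, 2 and 144 reads in WT. The lower gene without overlap was Grpel1, named after its values were seen (edgeR, unadjusted p = 0.232). It was at 62.4, 78.5 and 49.9 CPM in Lyl1 KO, against 83.0, 149 and 79.7 CPM in WT.

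Of 22 HSP90 co-chaperone genes 12 were higher and 10 lower, and the median log2 fold change was 0.12. Genotypes did not overlap for 1 of them as higher and 1 as lower, beside 5.97% and 5.19% of all tested genes. Ahsa1, which stimulates the ATPase of HSP90, was at 104, 128 and 107 CPM in Lyl1 KO, against 52.6, 26.2 and 62.5 CPM in WT. The groups did not overlap, and the log2 fold change was 1.26, SE 0.57 (edgeR, unadjusted p = 0.0597, adjusted p = 0.9999). Chordc1, another HSP90 co-chaperone, was at 55.0, 28.3 and 33.4 CPM in Lyl1 KO, against 157, 90.5 and 59.8 CPM in WT, the opposite direction and also without overlap (edgeR, unadjusted p = 0.0685). St13, which links HSP70 and HSP90, was at 159, 93.6 and 151 CPM in Lyl1 KO, against 14.2, 13.0 and 128 CPM in WT.

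Of 10 prefoldin and CCT partner genes 5 were higher and 5 lower, with a median of -0.09. For 1 of them as lower and 0 as higher the genotypes did not overlap, beside 5.19% and 5.97% of all tested genes. Pfdn5, a subunit of the prefoldin that hands actin and tubulin to CCT, was at 27.0, 62.0 and 42.5 CPM in Lyl1 KO, against 142, 71.3 and 75.1 CPM in WT, without overlap (edgeR, unadjusted p = 0.120). Tcp1 was at 76.5, 136 and 60.3 CPM in Lyl1 KO, against 0.617, 0.278 and 80.2 CPM in WT. It was low in WT libraries 1 and 2, as Cct2 was. In these libraries 20.6% and 21.7% of all tested genes were at 3 reads or fewer. Of 7 tested genes among 11 other stress chaperones 6 were higher and 1 lower, with a median of 0.31. Pdia4, an ER disulfide isomerase, was at 154, 318 and 225 CPM in Lyl1 KO, against 130, 189 and 242 CPM in WT, and Trap1, the mitochondrial HSP90, had 1880, 614 and 709 reads in Lyl1 KO, against 89, 3 and 867 reads in WT. Clu, Cryaa and Serpinh1 had no reads.

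Other gene lists moved between libraries as well. The 10 immediate-early genes on the list, Fos, Jun and Egr1 among them, which tissue dissociation and other stimuli can induce, summed to 16930 CPM in Lyl1 KO library 1, 13442 in library 2 and 7231 in library 3, against 7581, 6646 and 7929 CPM in WT libraries 1 to 3. All 10 had a positive log2 fold change, 4 of them at an unadjusted p under 0.05 (edgeR) and 0 after adjustment, and for 2 the genotypes did not overlap. These counts stand beside 1.16% and 5.97% of all tested genes in that direction. The 4 globin genes summed to 222, 65.2 and 0.243 CPM in Lyl1 KO, against 1.23, 0.119 and 0.238 CPM in WT. The oligodendrocyte markers Mbp, Mog and Mag summed to 51.9, 92.8 and 73.3 CPM in Lyl1 KO, against 225 CPM in WT library 1 and 40.8 and 86.8 CPM in WT libraries 2 and 3. Endothelial markers summed to 27.2, 61.6 and 34.0 CPM in Lyl1 KO, against 154, 26.1 and 37.7 CPM in WT, and border macrophage markers to 3.57, 0.254 and 10.2 CPM in Lyl1 KO, against 95.8, 0.437 and 23.6 CPM in WT. WT library 1, where Hspa1a, Cct5 and Cct7 were highest and Hspa5 lowest, had the highest sum of these 3 lists, and each sum there came mainly from 1 gene, Mag at 178 CPM, Pecam1 at 154 CPM and Mrc1 at 95.4 CPM. Of the other markers, Lyve1 and Cbr2 were also highest there, but with at most 1 read in a library. The rest did not peak there. Mog was detected only in WT library 3, Mbp was highest in Lyl1 KO library 1, Pf4 was highest in WT library 3, and Cldn5 had no reads in any library. The part of these lists in the chaperone values was not tested.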

How the data were processed

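The authors deposited unnormalized read counts per gene symbol for 6 libraries (3 Lyl1 KO, 3 WT). Per the submitters' processing notes, the tools were STAR 2.5.2b, featureCounts 1.5.1 of Subread, CASAVA 1.8.2 and limma 3.28.21, with no role given, and the build was GRCm38. The annotation, the strand setting and the handling of reads that match more than 1 gene were not given in the sources used here. Per the labels' protocols, cDNA from about 1000 sorted cells was PCR-amplified and tagmented without molecular identifiers or strand marking, so PCR copies count as reads, and sequenced as single reads of 50 cycles. The table's 92 spike-in entries were left out.

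Counts were tested in R 4.3.3 with edgeR 4.0.16: filterByExpr (minimum count 10, minimum total 15), TMM, a quasi-likelihood F test on genotype alone (2-sided, legacy dispersions) and Benjamini-Hochberg adjustment over 10394 genes, threshold 0.05. The legacy setting was kept because an earlier account of these data used it, and the newer one is an alternative. Standard errors were derived as the absolute log2 fold change over the square root of the F statistic. The common biological coefficient of variation was 1.27. Alternatives were other scalings and filters, DESeq2 1.42.0, limma-voom (limma 3.58.1), a replicate block, Xist as a covariate, leaving out each library, the near-identical Hspa1 pair summed and, added after seeing the data, newer dispersions and the 3 libraries with the most genes detected.

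Members and lists were chosen with earlier results of these data known. The rule for named genes took, per family, the 3 members with the highest mean CPM, up to 6 members per direction with the smallest p, 6 fixed genes, members present in 1 genotype and nearly absent from the other (0 were found), and 3 genes per partner list with the smallest p. Members outside it whose values are described are marked as named after their values were seen. Positions, exon lengths, exon overlaps and shared 50-base stretches come from GENCODE M21 on GRCm38, in which all 83 members had 1 entry. Promoter windows are RefSeq's on GRCm38.p6, with 68 of 83 members matched. The 12 pseudogene entries with the same prefixes had at most 54 reads in a library. Some marker genes are not reported here, and the sums of their lists leave them out.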

Additional observations from a re-analysis of the deposited data

How the results depend on the processing

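No member was called by edgeR, DESeq2 or limma-voom, in any alternative. DESeq2 called 52 genes and edgeR without a filter 8, none of them members. Members at an unadjusted p under 0.05 numbered 2 in the reported fit, 4 with DESeq2, 5 without a filter, 1 with Xist as a covariate and 0 to 7 when 1 library was left out. Over all tested genes the share was 2.84% in the reported fit, 6.02% with DESeq2, 7.56% without a filter and 3.47% with Xist as a covariate. The 7 came without WT replicate 3, where 10.5% of all tested genes passed as well. Members whose genotypes did not overlap were 6, 8 with upper-quartile scaling, and 9 to 22 without 1 library, since fewer libraries overlap less often. The share over all tested genes was not counted in these alternatives, so their counts have no background to be read against. Counting members without overlap uses no test or covariate. It was not done in the 3 libraries with the most genes detected, where 1 WT library faces 2 of Lyl1 KO. The members' median log2 fold change of -0.06 was 0.17 with limma-voom, 0.19 in those 3 libraries and -0.11 to 0.14 without 1 library. The median of all genes, -0.03, was then 0.20, 0.10 and -0.08 to 0.10. The replicate block shifted it by 0.21, upper-quartile scaling by 0.12 and the Xist covariate by -0.24.

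Deviations of same-numbered libraries correlated across genes with r of 0.0144, -0.00288 and 0.0327. For libraries with different numbers r ran from -0.0367 to 0.0138. All of these are near 0, and whether the replicate numbers pair the libraries is not known. With the replicate block 0 members were at an unadjusted p under 0.05, against 171 of 10394 genes. Of 592 values of 35 named members under alternatives 524 kept their sign and 68 reversed, and 15 members never reversed: Cct7, Dnaja2, Dnaja4, Dnajc16, Dnajc21, Hspa14, Hspa1b, Hspa2, Hspa5, Hspa8, Hspa9, Hspb3, Hspbap1, Hspbp1 and Hsph1. No reversed value was past the adjusted threshold, and the cause was not tested.

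The reversed log2 fold changes were these. With the replicate block they were 0.085 for Dnaja3, 0.10 for Dnajb1, 1.06 for Dnajb12, -6.06 for Hspa4l, 0.19 for Hspb1 and -0.59 for Hspb11. With limma-voom they were 0.012 for Cct3, 0.21 for Cct5, 0.36 for Dnajb1, 0.32 for Dnajb12, -0.040 for Dnajc8, -1.51 for Hspa4l, 0.29 for Hspb1 and -0.68 for Hspb11. In the 3 libraries with the most genes detected they were 0.53 for Cct3, 0.39 for Cct5, 0.43 for Dnaja1, 0.73 for Dnajb12, 0.88 for Dnajc10, -0.37 for Dnajc7, 0.19 for Hsp90aa1, -0.22 for Hsp90ab1, -0.27 for Hspa13, 0.91 for Hspa1a, 2.39 for Hspa4, -0.037 for Hspa4l and -0.12 for Hspb11. With library size they were 0.012 for Cct3, 0.058 for Dnajb1, 0.066 for Hsp90aa1 and 0.052 for Hsp90b1, and with upper-quartile scaling 0.060 for Cct3, 0.077 for Dnajb1, 0.090 for Hsp90aa1 and 0.076 for Hsp90b1. Dnajc8 was at -0.060 with RLE scaling, -0.061 with DESeq2, -0.0088 with a filter of 5 CPM and -0.039 with newer dispersions, which also gave 0.074 for Dnajb1 and 0.038 for Hsp90aa1. Without a filter Dnajb1 was at 0.024 and Hsp90aa1 at 0.019. With Xist as a covariate Hsp90aa1 was at 0.37 and Hspa1a at 0.049. Xist was at 349, 0.203 and 412 CPM in Lyl1 KO, against 1.41, 0.397 and 0.382 CPM in WT.

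Without 1 library each in turn, log2 fold changes ran from -0.36 to 0.14 for Cct3, -0.50 to 0.49 for Cct5, -1.89 to 0.11 for Dnaja3, -0.45 to 0.65 for Dnajb1, -0.041 to 0.24 for Dnajb11, -1.24 to 1.63 for Dnajb12, -0.61 to 0.051 for Dnajc3, -0.18 to 0.35 for Dnajc8, -0.42 to 0.62 for Hsp90aa1, -0.11 to 0.25 for Hsp90ab1, -0.13 to 0.086 for Hsp90b1, -0.092 to 0.96 for Hspa13, -1.66 to 0.90 for Hspa1a, -7.39 to 1.19 for Hspa4l and -0.83 to 1.37 for Hspb11. Family medians moved by less than the spread between libraries in 161 of 170 values and by more in 9.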
